A study of Homo sapiens with 8 samples.

Results

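ZFP36L1 sits on the minus strand of chromosome 14, and the H3K27ac peaks in a window of 400 kb around it (build hg19) were followed in A549 cells with and without CEBPB knockdown. H3K27ac, acetylated lysine 27 of histone H3, marks active promoters and enhancers. The members are all peaks of 4 deposited lists that overlap the window, 87 of 186774 peaks on chromosomes 1 to 22 and X. Joined wherever they overlapped by 1 bp or more, these gave 24 regions of 60669. The locus was selected on measured values of the same lists, because a cluster of peaks on the downstream side of the gene was called over a greater length after knockdown. All called lengths, peak counts, fold enrichments and q values below come from that contrast, so they are given as a description and no test was made on them.

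A549 is an established human lung adenocarcinoma line in which the stress regulator NRF2 is active. The cells were transfected with CEBPB siRNA-1, with CEBPB siRNA-2 or with control siRNA, and harvested 48 h later. One H3K27ac library was made with each CEBPB siRNA, and 2 with control siRNA, called control 1 and control 2. Each CEBPB siRNA thus has a single library, and the labels do not say whether the 2 controls came from separate cultures.

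ZFP36L1 encodes an RNA-binding protein with CCCH zinc fingers. It binds AU-rich elements in the untranslated ends of short-lived messages and promotes their decay, which makes it a negative regulator of many growth-factor and cytokine transcripts. CEBPB encodes C/EBPβ, a basic leucine zipper transcription factor that binds enhancers and promoters. In RefSeq, the nearest protein-coding neighbour on the upstream side is ACTN1, which encodes the actin cross-linking protein α-actinin-1. RAD51B is another known neighbour of ZFP36L1. No annotation in hg19 was used here, so the regions are placed by position and not assigned to exons, introns or other genes. Upstream and downstream name a side of ZFP36L1 and do not say which gene a region belongs to.

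RefSeq gives ZFP36L1 2 starts, 2827 bp apart, and the 250 bases before each are shown because every library had a peak over the gene's upstream end. The sequences are from the minus strand of build GRCh38.p14, whose positions do not match the hg19 positions of the peaks. The first lies at chr14:68796244-68796493 and the second at chr14:68793417-68793666. Capitals mark motif matches on either strand.
ZFP36L1 start 1: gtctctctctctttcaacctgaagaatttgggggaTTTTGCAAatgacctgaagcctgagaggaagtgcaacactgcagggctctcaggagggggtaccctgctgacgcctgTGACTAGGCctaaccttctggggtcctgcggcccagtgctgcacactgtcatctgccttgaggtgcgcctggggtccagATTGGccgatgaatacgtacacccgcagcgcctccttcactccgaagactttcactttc
ZFP36L1 start 2: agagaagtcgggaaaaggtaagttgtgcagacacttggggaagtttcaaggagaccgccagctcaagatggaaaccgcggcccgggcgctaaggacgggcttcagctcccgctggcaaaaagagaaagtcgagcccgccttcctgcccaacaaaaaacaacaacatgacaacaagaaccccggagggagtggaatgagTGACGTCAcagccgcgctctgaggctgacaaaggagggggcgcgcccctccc

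Before start 1, the C/EBP motif TTGCNNAA had 1 match, TTTTGCAA on the other strand, which begins 215 bases before the start. The same motif occurs in 9.05% of the 35116 RefSeq promoters cut to the same length. The core of the antioxidant response element, TGACNNNGC, to which NRF2 binds with small MAF proteins, matched once there as TGACTAGGC (10.9% of promoters), and the CCAAT box once as ATTGG on the other strand (32.0% of promoters). Before start 2, the cyclic AMP response element TGACGTCA, bound by CREB and ATF proteins, matched once, beginning 52 bases before the start (1.65% of promoters). The C/EBP-ATF composite TGATGCAA (0.772% of promoters) and the AP-1 element TGANTCA (6.57%) had no match in either stretch. None of the matches overlapped another. A match describes the letters only, and no binding was measured.

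Across the 400 kb, more of the sequence was called as acetylated with each CEBPB siRNA than in either control. Called length was 77185 bp with siRNA-1 and 67233 bp with siRNA-2, against 55255 bp in control 1 and 50382 bp in control 2. The means were 72.2 ± 7.04 kb with CEBPB siRNA and 52.8 ± 3.45 kb with control siRNA (SD, n = 2 each), a difference of 19.4 kb or a ratio of 1.37. The gap was larger than the spread within either pair. The number of peaks hardly separated the groups, with 23 and 25 after knockdown against 22 and 17 in the controls. Among all tiles of 400 kb on chromosomes 1 to 22 and X with a call in every library, 31.9% likewise had more called length with each CEBPB siRNA than in each control. A ratio of the means as high as that of the window occurred in 22.4% of them.

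**Figure D1:**
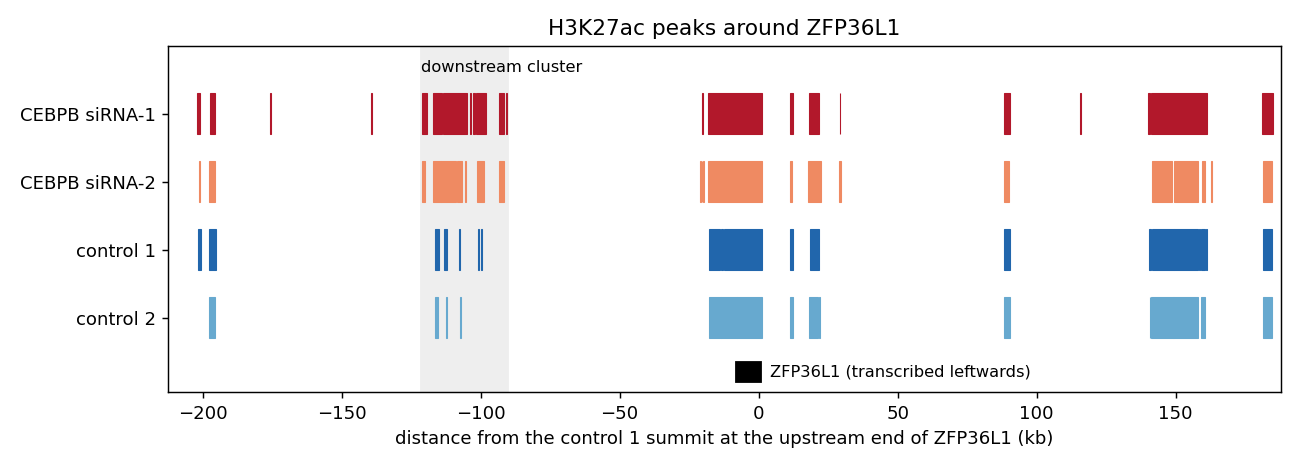
H3K27ac peaks of the 4 libraries across the 400 kb window, 1 row per library; the horizontal axis is the distance in kb from the control 1 summit at the upstream end of ZFP36L1, with the gene's downstream side to the left. The shaded downstream cluster is filled over 20977 and 15631 bp with the CEBPB siRNAs and over 3680 and 1759 bp in the controls, while the blocks at the gene and upstream are similar in all 4 rows.

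Of the 24 regions, 7 were called over a greater length with each CEBPB siRNA than in each control, and 0 over a smaller length. For all merged regions these shares were 19.4% longer and 20.6% shorter. The window had 3 gained regions, called with both CEBPB siRNAs and in neither control, against 6.76% of all merged regions. It had 0 lost regions, called in both controls and with neither CEBPB siRNA, against 7.01% of all merged regions. Of the 8 regions called in all 4 libraries, 3 were longer and 0 shorter after knockdown, where 26.9% and 25.6% of all such regions were. The rule chose the locus on this contrast, so nothing is read from these shares. A further 2 regions were called in 3 libraries, and 11 in a single library. All 11 were in a knockdown list, 7 in that of siRNA-1 and 4 in that of siRNA-2. Among all merged regions, 21.1% were called in a single CEBPB siRNA library only and 12.5% in a single control library only. The 11 regions were short (222 to 573 bp) and weak, with a −log10 q of at most 9.24.

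Most of the extra length lay in the downstream cluster, a stretch of 31 kb about 90 to 120 kb beyond the reference summit at the gene's upstream end. Called length there was 20977 bp with siRNA-1 and 15631 bp with siRNA-2, against 3680 bp in control 1 and 1759 bp in control 2. The means were 18.3 ± 3.78 kb with CEBPB siRNA and 2.72 ± 1.36 kb with control siRNA (SD, n = 2 each), a ratio of 6.73. With the CEBPB siRNAs 67.7% and 50.4% of the stretch was called, against 11.9% and 5.67% in the controls. Lists differ in their total called length, so the same values were also taken per Mb called in each list. They were then 298 and 253 bp with the CEBPB siRNAs, against 54.2 and 28.3 bp in the controls. Among tiles of 31 kb with a call in every library, 28.6% had more called length with each CEBPB siRNA than in each control, and 0.568% had a ratio as high. The bounds of the cluster were drawn around its peaks and those of the tiles were not, so the 2 are not on an equal footing.

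Most of the added bases were shared by the 2 siRNAs. In the cluster 11.2 kb was called with both siRNAs and in neither control, 6.30 kb with 1 siRNA only and in neither control, and 1.50 kb in all 4 libraries. No base of it was called in both controls and missed with both siRNAs. The Jaccard index of called bases, the shared length over the combined length, was 0.706 between the knockdown libraries and 0.379 between the controls. Between a knockdown and a control library it was 0.0839 to 0.235. The cluster was chosen for its longer calls after knockdown, and the index depends on how much of a stretch is called. These values are therefore no measure of how well the 2 siRNAs agree.

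**Figure D2:**
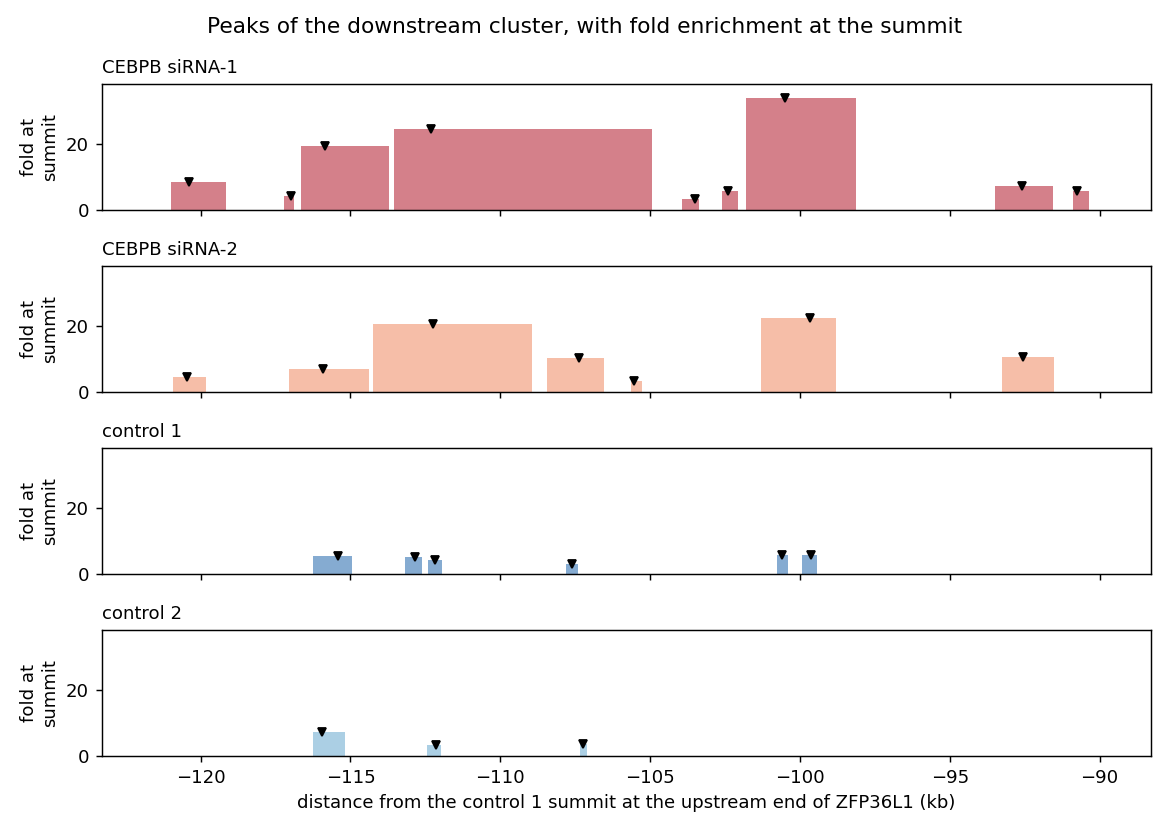
Peaks of the downstream cluster in each library; the horizontal axis is the distance in kb from the control 1 summit at the upstream end of ZFP36L1, each block spans 1 peak, its height is the deposited fold enrichment at the summit, and the triangle marks the summit. With the CEBPB siRNAs the stretch holds 9 and 7 peaks of up to 8596 and 5295 bp, and the controls hold 6 and 3 short peaks of up to 1312 and 1049 bp; fold enrichments are each list's own values.

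The cluster was built of 7 regions. The longest (chromosome 14, 69145080 to 69157355) was centred 111 kb from the reference summit. It was called over 11857 bp in 3 peaks with siRNA-1 and over 10255 bp in 4 peaks with siRNA-2, against 2804 bp in 4 peaks in control 1 and 1759 bp in 3 peaks in control 2. The controls therefore marked scattered parts of a block that was nearly filled after knockdown. The block joins the peaks of all lists, and both its ends are edges of siRNA-1 peaks. Its filling after knockdown thus follows in part from how it was drawn. The widest gaps between neighbouring peaks of the block were 252 bp with siRNA-1 and 881 bp with siRNA-2, against 4112 bp in control 1 and 4613 bp in control 2. Its best peak had a −log10 q of 80.3 with siRNA-1 and 72.7 with siRNA-2, at percentiles 84.9 and 87.6 of their own lists. In control 1 the best peak had a −log10 q of 9.80, at percentile 43.4, and in control 2 it had 14.1, at percentile 56.0.

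The strongest peaks of the cluster after knockdown lay in the region at 69160514 to 69164178, centred 99.95 kb away. It was called over 3665 bp with siRNA-1 and 2524 bp with siRNA-2, against 876 bp in 2 peaks in control 1 and no peak in control 2. The fold enrichment at the summit was 33.5 with siRNA-1 and 22.3 with siRNA-2, and at most 5.89 in control 1, each on its own list's scale. These peaks stood at percentile 94.2 of the siRNA-1 list and 91.4 of the siRNA-2 list by −log10 q. The better control 1 peak stood at percentile 42.7 of its list. The summits with the 2 siRNAs were at 69161790 and 69162637, and the 2 control 1 peaks had theirs at 69161713 and 69162663, so the knockdown summits lay close to those of control 1.

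The cluster held 2 gained regions. The one nearer the gene (69168800 to 69170793, 92.5 kb away) was called over 1934 and 1750 bp with the siRNAs and not in the controls. It alone among the 3 gained regions of the window reached a −log10 q of 10 in each knockdown list (28.1 and 36.7), and its 2 summits were 14 bp apart. The other, at the far end of the cluster (69141301 to 69143148, 120.1 kb away), was called over 1848 bp with siRNA-1 and 1102 bp with siRNA-2, with no call in the controls. Its −log10 q was 26.7 with siRNA-1 and 9.48 with siRNA-2, and the summits were 48 bp apart. The other 3 regions of the cluster were called with siRNA-1 alone, over 573, 551 and 549 bp, and the last of these (69171414 to 69171962) was the region of the cluster closest to the gene.

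On the downstream side beyond the cluster, the region with the strongest peaks had a similar called length in all libraries. It (69064461 to 69067270, 196 kb away) was called over 1825 and 2397 bp with the siRNAs, against 2506 and 2167 bp in the controls, so the groups overlapped. Its 4 summits lay within 33 bp. A weaker region (69060328 to 69061578) was called over 1173 and 229 bp with the siRNAs, against 770 bp in control 1 and no call in control 2. In all, the 91 kb beyond the cluster had 3715 and 2626 bp called with the siRNAs, against 3276 and 2167 bp in the controls. The 80 kb between the cluster and the gene had 8041 and 9120 bp, against 7325 and 7510 bp in the controls, most of it in the block that runs on into the gene.

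At ZFP36L1 itself acetylation was called over almost the same length in every library. Over the gene and 2 kb on either side, called length was 11568 bp with siRNA-1 and 11671 bp with siRNA-2, against 11399 bp in control 1 and 11166 bp in control 2. The mean difference was 337 bp, a ratio of 1.03. The gene belongs to a block that reaches past its downstream end (69244025 to 69263671), called over 19373 and 19647 bp with the siRNAs, against 18724 and 18676 bp in the controls. The knockdown values lie above both controls, but by little.

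What differed at the gene was how the lists divided the block into peaks. Each CEBPB siRNA list gave it as 1 peak, and each control list as 3 peaks with gaps of 157 and 136 bp in control 1 and of 111 and 227 bp in control 2. By width, the knockdown peaks ranked 70 and 41 in their lists, and the widest control peaks of the block, of 13603 and 8752 bp, ranked 195 and 469. These ranks follow from the division. Sequencing depth and the calling options are unknown, and how often other regions were divided in this way was not counted.

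Apart from the summit of a short, weak middle peak in control 1 (69249514), the summits in the block lay at 3 places. At the first, the siRNA-2 peak had its summit at 69246268, against 69246146 in control 1 and 69246176 in control 2. At the second, the siRNA-1 peak had its summit at 69250956, against 69250987 in control 2. At the third, the gene's upstream end, only the controls had a summit, at 69262301 in control 1 and 69262273 in control 2. Since a single peak has a single deposited summit, the knockdown lists name 1 of these places each. The best peak of the block stood between percentiles 97.0 and 98.6 by −log10 q in the 4 lists.

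On the upstream side of the gene, called length overlapped between the groups. It was 32884 bp with siRNA-1 and 28185 bp with siRNA-2, against 29575 bp in control 1 and 27780 bp in control 2. The means were 30.5 ± 3.32 kb with CEBPB siRNA and 28.7 ± 1.27 kb with control siRNA (SD, n = 2 each). Their difference of 1.86 kb was smaller than the SD between the 2 siRNAs and larger than that between the 2 controls. Without siRNA-1 the mean with CEBPB siRNA is below that of the controls, and the difference is -492.5 bp.

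**Figure D3:**
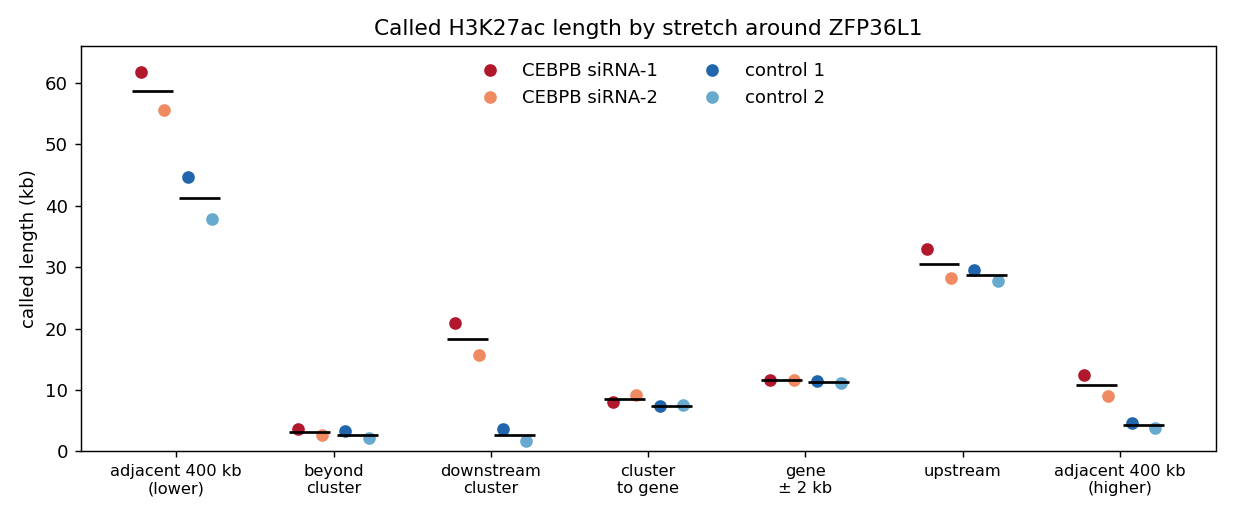
Called length in kb for each library in 7 stretches along chromosome 14, ordered by position; points are libraries and black lines are the means of the 2 CEBPB siRNA and the 2 control libraries. In the window, the downstream cluster shows the wide gap, with means of 18.3 kb and 2.72 kb, against 11.6 kb and 11.3 kb at the gene.

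One upstream region called in all 4 libraries, 20.1 kb from the reference summit (69280102 to 69284722), was longer with each siRNA than in each control. It was called over 3678 and 4621 bp with the siRNAs, against 3381 and 3349 bp in the controls. All 4 lists had a strong peak here, at percentile 94.4 or above by −log10 q. Closer in, 11.8 kb away, a weak region (69273415 to 69274746) was called over 1311 and 874 bp with the siRNAs, against 1220 and 1198 bp in the controls. The third gained region of the window, 29.2 kb away (69291196 to 69291772), was small, with 253 and 577 bp called and a −log10 q of 6.60 and 7.09.

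Farther upstream were 3 longer regions, in which siRNA-1 and siRNA-2 lay on opposite sides of the controls. The longest of the window (69402386 to 69423512, 151 kb away) was called over 20975 bp with siRNA-1 and 17254 bp with siRNA-2, against 19642 bp in control 1 and 18276 bp in control 2. The siRNA-1 list had it in 2 peaks, one of them 20142 bp wide, and the siRNA-2 list in 4, while the controls had 7 and 5. Its best summits in the 4 lists lay within 74 bp. The region at the upper edge of the window (69443265 to 69447191, 183 kb away) was called over 3927 and 2977 bp with the siRNAs, against 3189 and 3034 bp in the controls. The region 89.3 kb away (69350418 to 69352753) was called over 2336 and 1592 bp, against 2143 and 1923 bp in the controls. Over the whole genome the siRNA-1 list also had the greatest called length, 70.4 Mb, and the siRNA-2 list the smallest, 61.7 Mb, against 67.9 and 62.1 Mb in controls 1 and 2. The part of these totals in the single regions was not tested.

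**Figure D4:**
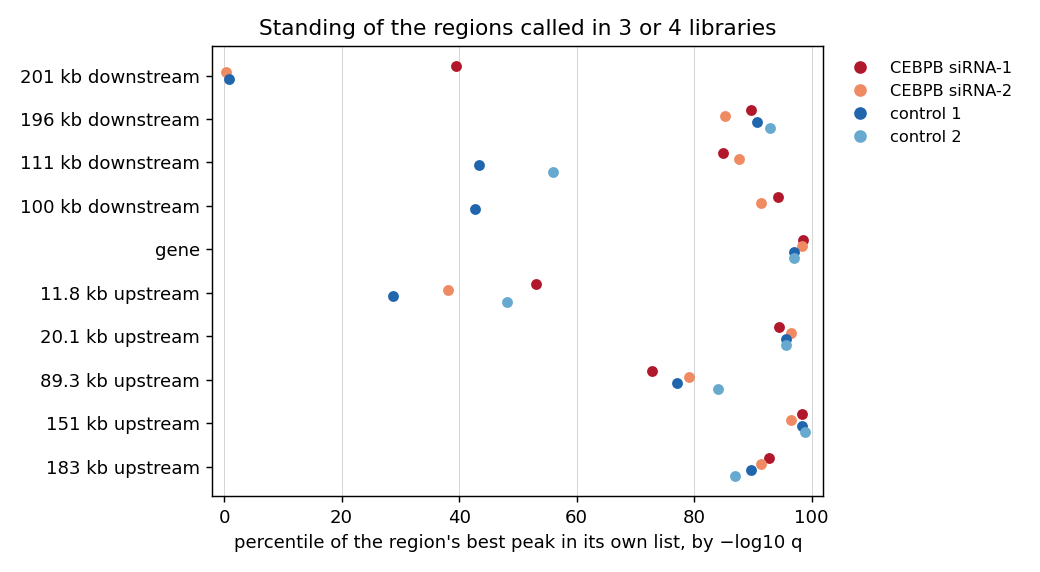
Percentile, by −log10 q within its own list, of the best peak in each of the 10 regions called in 3 or 4 libraries; regions are named by the distance of their centre from the reference summit, and colours are the libraries. The regions 111 and 100 kb downstream are at percentiles 84.9 to 94.2 in the knockdown lists and 42.7 to 56.0 in the controls that called them; lists differ in length, so percentiles are shown to place a peak in its list.

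Called length was also higher with each CEBPB siRNA in the stretches next to the window. In the adjacent 400 kb on the downstream side, the siRNA-1 list had 61.7 kb called and the siRNA-2 list 55.5 kb, against 44.7 kb in control 1 and 37.8 kb in control 2, a ratio of 1.42. In the adjacent 400 kb on the upstream side it was 12.5 and 9.07 kb with the siRNAs, against 4.69 and 3.82 kb in the controls, a ratio of 2.54. That ratio rests on little called length, 1.17% and 0.954% of the stretch in the controls. Among tiles of 400 kb with a call in every library, 31.9% had more called length with each siRNA than in each control. The ratio in these tiles ran from 0.484 at percentile 5 to 2.38 at percentile 95. The peaks nearest to the lower border on its outer side, 3.94 to 5.29 kb away, were 4688 and 3714 bp wide with the siRNAs, against 1700 and 883 bp in the controls. The first peaks inside that border were 1173 and 229 bp wide with the siRNAs, against 770 and 2167 bp in the controls. At the upper border the nearest outer peaks were 236 and 936 bp wide with the siRNAs, against 394 bp in control 1 and 416 bp in control 2, where the nearest was 94.3 kb away. The last inside it were 3927 and 708 bp wide with the siRNAs, against 3189 and 3034 bp in the controls.

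**Figure D5:**
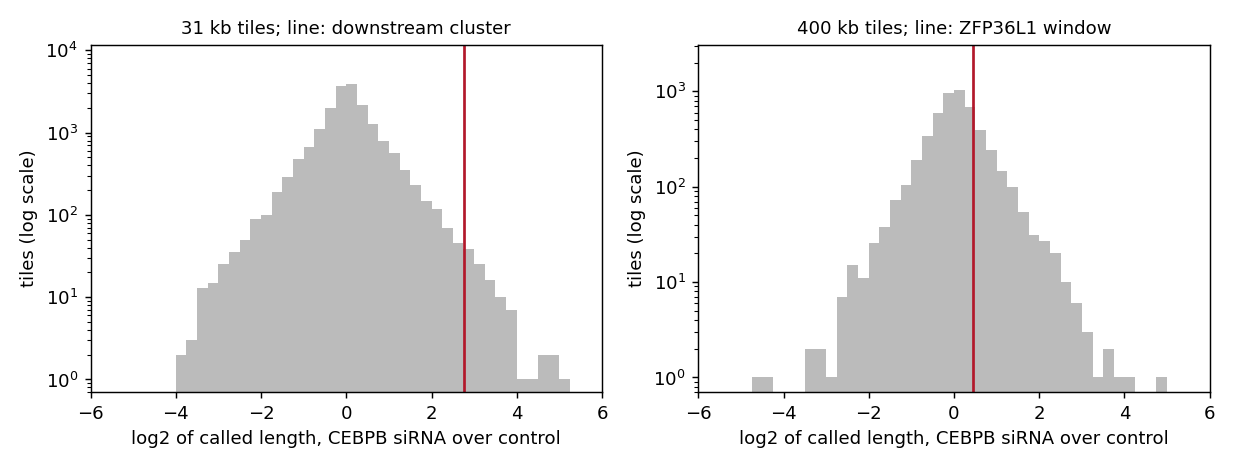
Tiles of 31 kb (left) and 400 kb (right) with a call in every library, counted by the log2 ratio of mean called length with CEBPB siRNA over control; the counts are on a log scale and the red lines mark the downstream cluster (2.75) and the ZFP36L1 window (0.45). Of the tiles, 0.568% reach the cluster and 22.4% the window.

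Of all bases in the window, 46.9 kb was called in every library, 12.1 kb with both siRNAs and in neither control, and 0.059 kb in both controls and with neither siRNA. The cluster held 11.2 of the 12.1 kb. Sequencing depth is unknown for these lists, so a stretch with no peak is one where none was called, and absence of acetylation cannot be told from too few reads. The lists hold no RNA values, and neither ZFP36L1 transcripts nor the level of CEBPB after knockdown was measured here.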

How the data were processed

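H3K27ac was profiled in 4 libraries of A549 cells; 4 input libraries were not analysed here. Per the submitters' processing notes, BWA 0.7.17, SAMtools 1.7.0, MACS2 2.2.7.1 and build hg19 were used, with options not given in the sources used. The authors deposited 1 peak list per library. Each deposited peak has a fold enrichment at its summit (a linear ratio), a −log10 p, a −log10 q and a score derived from the −log10 q. Fold enrichments depend on the library and describe peaks within a list only. The lists have no counts, so depth and its precision are unknown.

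Peaks on chromosomes 1 to 22 and X were joined over all lists by an overlap of 1 bp or more, and called bases were counted per library with Python 3.11.15, numpy 2.4.6 and pandas 2.3.3. Upstream and downstream follow the minus strand of ZFP36L1, and distances run from the control 1 summit at the gene's upstream end. The code was tested on simulated lists. The members, stretches and motifs were chosen with earlier results of these data known. Regions described singly are those of the cluster and the gene, gained or lost ones reaching a −log10 q of 10 in each list that has them, and the 10 longest by called length. The 2 weak regions nearest the borders or the gene and the smallest gained region were added after their values were seen. No test was made, and 2 libraries against 2 could not give an exact permutation p below 0.333.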

Additional observations from a re-analysis of the deposited data

How the results depend on the processing

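Called length was higher with CEBPB siRNA in the window, the downstream cluster and the downstream side. This direction held at a −log10 q of 10 or more and at an equal called length of 61.7 Mb per list. Leaving out a library could not reverse it, since each CEBPB siRNA value there exceeded each control value. The locus was also chosen on this contrast. In the cluster the difference was 16046.5 bp at the stricter threshold and 15311 bp at equal length, against 15584.5 bp as deposited. Without each library in turn, the difference ranged from 14414.5 to 24366.5 bp in the window, 12911.5 to 18257.5 bp in the cluster, 14518.5 to 19874.5 bp downstream, 220.5 to 453.5 bp at the gene and -492.5 to 4206.5 bp upstream, where it was reversed (-492.5 bp) without siRNA-1. The difference in peak number ranged from 2 to 7. Also without each library in turn, regions called longer ranged from 7 to 21 and shorter from 0 to 7. Gained regions ranged from 3 to 11 and lost ones from 0 to 1. The highest of these counts came where a CEBPB siRNA library was left out, so that fewer calls had to concur by construction. With all 4 libraries, regions called longer numbered 7 of 24 as deposited, 5 of 11 at the stricter threshold and 6 of 19 at equal length. They numbered 7 where a call had to cover 25% of a region and 8 with peaks within 1 kb joined. Gained regions numbered 5 where a call had to cover 25% of a region, since partial calls in controls then no longer count, and 2 at the stricter threshold, 2 at equal length and 4 with peaks within 1 kb joined. With the replicate block, pairing libraries by the number in the labels, the difference was 19390.5 bp in the window, 15584.5 bp in the cluster, 17196.5 bp downstream, 1857 bp upstream, 337 bp at the gene and 4.5 peaks. These equal the differences of means by construction, so they are no check on them. Within the replicate block, regions called longer numbered 8, shorter 0, gained 3 and lost 0. Over 24133 regions called in all 4 libraries, deviations of same-numbered libraries had a correlation of 0.0642, and the labels do not say that a number marks a batch. Unknown depth limits what a missing call can show.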
